A study of Mus musculus with 52 samples.

Results

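H3K4me1-only promoters, that is promoters carrying H3K4 monomethylation but no H3K4 trimethylation nearby, were examined in mouse embryonic fibroblasts (MEFs) with and without intact MLL2. A promoter was taken as the 1 kb on each side of a transcription start site (TSS). It was counted when it overlapped an H3K4me1 peak in all 6 H3K4me1 libraries and when no H3K4me3 peak of any of the 6 H3K4me3 libraries lay within 5 kb. This held for 833 of 26335 unique TSS (3.16%), which belong to 781 of 22990 gene symbols. The members were thus chosen on H3K4me1 and H3K4me3 peaks in both genotypes, and the values of these 2 marks are given below as a description only. H3K4me2 was not used to choose them.

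The cells were immortalized MEFs in which both Mll2 alleles carried loxP sites. The FC/FC cells were F/F cells exposed to tamoxifen for 24 h, which excises part of both alleles. By the study's methods, cells were then washed and, unless it states otherwise, grown for several more days before harvest. The F/F cells had no tamoxifen, so the treatment and the deletion cannot be told apart in this comparison. Each mark was measured by ChIP-seq in 3 FC/FC and 3 F/F libraries, described as independent replicates, and each library is called here by its sequencing number. The excision itself cannot be read from these values, which cover whole transcripts.

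H3K4 methylation is placed by enzymes that include SETD1A and the MLL family, to which MLL2 belongs. The study gives KMT2D as another name of its MLL2, which in mice was first named MLL4. Monomethylation is typical of enhancers and of the flanks of active promoters, trimethylation sits over the start of active genes and of most CpG islands, and dimethylation is found at both. A promoter with monomethylation alone is a common state of tissue-restricted genes that a cell type does not transcribe strongly, and the same pattern arises where an enhancer lies over or beside an annotated start site. Which of these applies to a given promoter was not tested.

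The 250 bases before the TSS are shown for 4 members with large H3K4me2 differences (Ifitm6, S100b, Krtap2-4, and Ly6f) and for the 2 with the strongest H3K4me1 peaks (Hdac7 and Upk3bl), because the low CpG content of these promoters can be seen in them directly. They are read 5′ to 3′ on the strand of the gene from GRCm38.p6 (mm10), at chr7:141016893-141017142 (minus strand), chr10:76253586-76253835 (plus), chr11:99614847-99615096 (minus), chr15:75268171-75268420 (plus), chr15:97814864-97815113 (minus), and chr5:136057017-136057266 (plus), in the order below. Capitals mark CpG dinucleotides.
Ifitm6: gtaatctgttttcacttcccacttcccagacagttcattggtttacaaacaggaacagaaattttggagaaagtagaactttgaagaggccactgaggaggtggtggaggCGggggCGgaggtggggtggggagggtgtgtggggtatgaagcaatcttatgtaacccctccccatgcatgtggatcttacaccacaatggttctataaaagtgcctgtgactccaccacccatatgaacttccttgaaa
S100b: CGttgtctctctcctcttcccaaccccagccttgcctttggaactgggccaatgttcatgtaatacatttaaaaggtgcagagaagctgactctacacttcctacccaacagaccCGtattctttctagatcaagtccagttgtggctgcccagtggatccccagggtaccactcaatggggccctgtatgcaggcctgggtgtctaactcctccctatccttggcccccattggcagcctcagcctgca
Krtap2-4: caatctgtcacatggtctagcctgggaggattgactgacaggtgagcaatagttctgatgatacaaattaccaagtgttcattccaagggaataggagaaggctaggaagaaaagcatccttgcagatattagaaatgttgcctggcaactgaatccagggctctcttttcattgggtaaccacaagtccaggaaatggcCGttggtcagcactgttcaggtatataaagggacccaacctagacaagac
Ly6f: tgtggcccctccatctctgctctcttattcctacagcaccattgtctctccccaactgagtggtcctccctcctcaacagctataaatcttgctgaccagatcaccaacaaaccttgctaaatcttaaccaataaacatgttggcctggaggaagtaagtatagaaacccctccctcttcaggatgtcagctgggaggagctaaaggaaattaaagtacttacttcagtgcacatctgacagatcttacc
Hdac7: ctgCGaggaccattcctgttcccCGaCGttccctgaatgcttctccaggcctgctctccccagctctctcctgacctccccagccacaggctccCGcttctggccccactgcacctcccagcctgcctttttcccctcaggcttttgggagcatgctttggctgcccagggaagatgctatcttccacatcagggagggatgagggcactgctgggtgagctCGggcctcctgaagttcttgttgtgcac
Upk3bl: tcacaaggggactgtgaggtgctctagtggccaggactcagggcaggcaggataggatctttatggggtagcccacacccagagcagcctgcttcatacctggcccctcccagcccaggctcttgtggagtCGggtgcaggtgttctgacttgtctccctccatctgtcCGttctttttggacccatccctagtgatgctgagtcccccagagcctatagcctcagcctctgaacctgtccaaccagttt
The Ly6f window holds 0 CpG dinucleotides, Krtap2-4 holds 1, Ifitm6, S100b, and Upk3bl hold 2 each, and Hdac7 holds 5. The Krtap2-4 window also has the letters TATAAA starting 27 bases before the TSS, where a TATA box would lie, while in Ifitm6 and Ly6f the same letters start 46 and 169 bases before it.

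The low CpG content was general to these promoters. The median number of CpG dinucleotides in the 250 bases before the TSS was 3 in the 833 H3K4me1-only promoters (quartiles 2 and 6). It was 17 in the 8956 TSS with H3K4me1 in all 6 libraries and an H3K4me3 peak within 5 kb in all 6 (quartiles 11 and 24), and 2 in the TSS with neither mark (quartiles 1 and 5). At most 5 CpG dinucleotides were found in 74.4% of H3K4me1-only promoters, against 9.62% of those with both marks and 77.7% of those with neither. By this measure H3K4me1-only promoters lay near the unmarked promoters, with 31 members holding 15 or more CpG dinucleotides. These shares are descriptions over promoters of 1 genome, with no replicates.

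**Figure D1:**
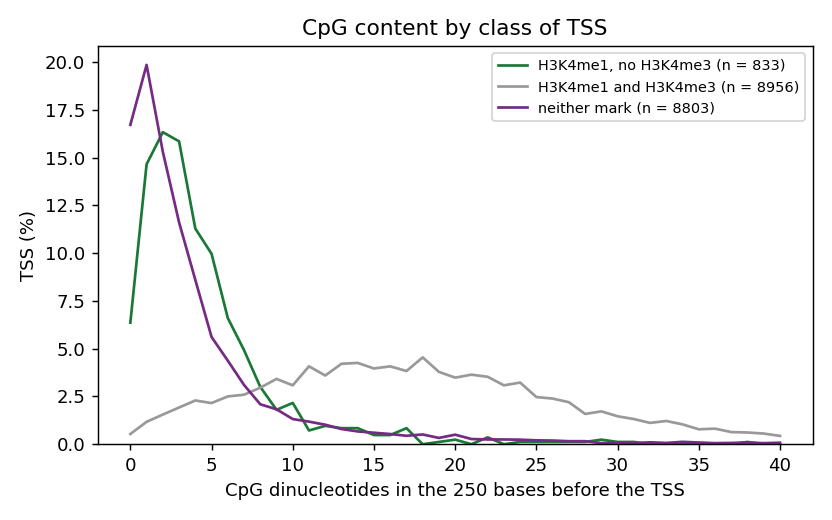
CpG dinucleotides in the 250 bases before the TSS (horizontal axis, number per window, shown up to 40) and the share of TSS of each class (vertical axis, %). Green is H3K4me1 without H3K4me3, grey is both marks, and purple is neither; the green and purple lines peak at or below 3 CpG dinucleotides, whereas the grey line is broad around its median of 17.

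Short motifs were counted in the same 250 bases. A TATAAA starting 40 to 20 bases before the TSS, on the strand of the gene, was present in 39 members (4.68%), against 0.971% of promoters with both marks, 4.27% of those with neither, and 2.33% of all 26285 TSS on assembled chromosomes. TGANTCA, the letters bound by AP-1, a factor of fibroblast enhancers, was found on either strand in 117 members (14.05%), against 4.25% with both marks, 8.96% with neither, and 6.21% of all. Across the 2 kb centred on the TSS it was found in 55.9% of members, against 34.0% with both marks, 44.5% with neither, and 37.8% of all TSS. GGAATG, the core letters bound by TEAD factors, was present on either strand in 18.4% of members, against 9.98% with both marks, 13.2% with neither, and 11.5% of all. GGGCGG, bound by SP1 and related factors at CpG-rich promoters, was present in 17.9% of members, against 63.1% with both marks, 14.3% with neither, and 42.1% of all. None of these 4 motifs shares its full letters with another. TATAAA anywhere in the window, on either strand, was present in 14.2% of members. It was present in 5.40% with both marks, 21.0% with neither, and 11.6% of all. CCAAT was found in 30.1% of members, against 35.5% with both marks, 35.3% with neither, and 35.1% of all. For CACGTG the shares were 4.92%, 9.17%, 4.00%, and 6.69% in that order, and for TGACGT 3.00%, 10.7%, 3.71%, and 7.46%. A match of letters is a description and not evidence of binding.

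The H3K4me1-only promoters belonged mostly to transcripts that the deposited tables do not list as active. The study set this mark by the levels of γH2AX, RNA polymerase II, and nascent RNA in all replicates. It is given per transcript and not per gene. The authors' active mark was carried by 44 of the 833 (5.28%), against 33.1% of promoters with both marks and 15.4% of all. RefSeq noncoding accessions made up 22.8% of members and 10.6% of all TSS. The TSS itself lay inside an H3K4me1 peak in all 6 libraries at 509 promoters (61.1%) and in no library at 113, where the peak was beside it. The nearest H3K4me3 peak was a median of 27342 bp away (quartiles 12459 and 51883 bp). In 170 cases the TSS lay inside a longer transcript of its own gene and in 100 inside the body of another gene, and for 124 (14.9%) the gene had another TSS with H3K4me3 in all 6 libraries. By chromosome, 0 of 106 TSS on Y were H3K4me1-only, and on the others the share ran between 0.602% on X (7 members) and 5.70% on chromosome 10 (70 members).

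At the limit of 5 kb the choice is arbitrary. The 3 members just inside it were Ttc41 (nearest H3K4me3 peak 5027 bp), 5031425F14Rik (5062 bp), and Gm15910 (5084 bp), and the 3 TSS just outside were Tmem211 (4989 bp), Calhm1 (4840 bp), and Gpx4 (4839 bp). Inside, H3K4me2 in the FC/FC and F/F libraries was 2.56–2.71 and 2.36–2.43 RPKM for Ttc41, 0.406–0.451 and 0.567–0.681 RPKM for 5031425F14Rik, and 1.83–2.07 and 2.45–2.94 RPKM for Gm15910. Outside, it was 0.503–0.506 and 0.504–0.556 RPKM for Tmem211, 0.322–0.407 and 0.405–0.521 RPKM for Calhm1, and 10.2–11.6 and 10.3–11.4 RPKM for Gpx4, which encodes a peroxide-reducing enzyme. RPKM, the reads scaled to length and library depth, is taken over the transcript and 500 bp beyond both of its ends, so it reflects the whole gene and not the promoter alone.

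By gene group, H3K4me1-only promoters were found at 781 of 22990 genes (3.40%). Keratin and keratin-associated genes, the structural genes of epithelia and hair, had one at 14 of 108 (12.96%), cytokines and chemokines at 8 of 73 (10.96%), myogenic genes at 5 of 42 (11.9%), extracellular matrix genes at 7 of 87 (8.05%), and serpins, which inhibit serine proteases, at 6 of 63 (9.52%). None of the 33 immediate early genes had one, and 32 of them had H3K4me3 in all 6 libraries. Olfactory receptor genes, which fibroblasts do not use, had one at 4 of 1117 (0.358%), and zinc finger genes, with 331 of 370 carrying H3K4me3, at 2. Hox and protocadherin genes had 0 of 44 and 0 of 71. RIKEN and Gm gene models had one at 192 of 3063 (6.27%). These counts were not tested.

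The marker promoters fitted the fibroblast label. H3K4me3 lay at the promoter in all 6 libraries for 10 of 11 fibroblast markers, the exception being Thy1, a surface glycoprotein of fibroblasts, which was itself an H3K4me1-only promoter. It did so for 2 of 8 epithelial markers (Cdh1 and Epcam), 0 of 8 haematopoietic, 1 of 7 endothelial (Kdr), and 1 of 8 neural markers (Tubb3). The summed H3K4me3 level of the 8 epithelial markers was 1.66–1.85 RPKM in FC/FC and 1.81–1.998 RPKM in F/F libraries, and that of the 11 fibroblast markers was 91.7–94.6 and 91.9–96.4 RPKM. Of these epithelial and haematopoietic markers, Krt19, Krt8, Lyz2, and Csf1r were themselves H3K4me1-only promoters. The marker lists do not cover all epithelial or haematopoietic genes among the members. A part played by other cells in these promoters was not tested.

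One H3K4me2 library, FC/FC NGS-6282, is labelled with the antibody that the labels give for the H3K4me1 libraries. Its log2(RPKM + 0.1) over all unique TSS correlated at Pearson r = 0.993–0.995 with the other H3K4me2 libraries. With the H3K4me1 libraries it correlated at 0.804–0.836, and the other 2 FC/FC H3K4me2 libraries did so at 0.795–0.837. It stood farther from its group than the others, with an SD of 0.199 log2 units from the mean of its 2 group-mates over the tested TSS, against 0.0820–0.128 for the other 5. The main H3K4me2 counts are also given without it.

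The strongest H3K4me1 peaks among the members were at Hdac7 (histone deacetylase 7, mean MACS score over 6 libraries 2992), Upk3bl (uroplakin 3B-like, 2985), 1700119H24Rik (2921), Spon2 (spondin 2, a secreted matrix protein, 2909), Lsp1 (an actin-binding protein of leukocytes, 2871), Foxs1 (a forkhead transcription factor, 2714), Tmem204 (2685), and 5430416O09Rik (2643). The score is −10 times log10 of the peak p-value. It was exactly 3100 in 23 of the 48 values behind these means, at 7 of the 8 promoters, so their order is not resolved. The rule used these peaks, so they are not a finding. H3K4me2 differed among these 8 promoters. Hdac7 had H3K4me2 peaks over its TSS in all 6 libraries, whereas Lsp1 had none within 1 kb in any, its nearest lying 1235 to 1514 bp away, and Upk3bl had weak ones in F/F NGS-6286 and NGS-6294 only, with scores of 99.8 and 97.7.

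H3K4me1 and H3K4me3 over the members, given only as a description, were lower in FC/FC cells. Median H3K4me1 was 1.27, 1.23, and 1.21 RPKM in FC/FC libraries and 1.42, 1.33, and 1.34 RPKM in F/F libraries (1.24 ± 0.0303 and 1.37 ± 0.050, SD, n = 3 each). Median H3K4me3 was 0.242, 0.247, and 0.223 RPKM in FC/FC and 0.262, 0.265, and 0.252 RPKM in F/F libraries. The H3K4me1 level of every FC/FC library lay below every F/F library at 298 members (35.8%, against 9.84% of all TSS) and above it at 20 (2.40%, against 21.6%). For H3K4me3 the counts were 171 below (20.5%, against 5.59%) and 8 above (0.960%, against 3.41%). Since both marks chose the members, nothing is read from these counts.

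H3K4me2 was lower at H3K4me1-only promoters in FC/FC cells, by peaks and by level. An H3K4me2 peak lay within 1 kb of 518, 544, and 547 of the 833 TSS in FC/FC libraries NGS-6282, NGS-6290, and NGS-6298 (62.2%, 65.3%, and 65.7%, mean 64.4 ± 1.91%, SD, n = 3) and of 623, 612, and 685 in F/F libraries NGS-6278, NGS-6286, and NGS-6294 (74.8%, 73.5%, and 82.2%, mean 76.8 ± 4.72%). All 3 FC/FC shares were below all 3 F/F shares, with a difference of −12.4 percentage points (−11.3 points without FC/FC NGS-6282). Promoters with both marks had an H3K4me2 peak at 99.6% and 99.7% of TSS in FC/FC and F/F cells, and those with neither mark at 6.59 ± 0.852% and 5.65 ± 1.17%. The number of H3K4me2 peaks in the whole library moved the same way, at 58585, 58095, and 56112 in FC/FC and 66779, 62100, and 70437 in F/F libraries. With the 56112 highest-scoring peaks of each library the share was 67.0% in FC/FC and 73.0% in F/F cells, a difference of −6.04 points. Fewer cells carrying the mark and less mark in each cell cannot be told apart in these bulk samples.

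**Figure D2:**
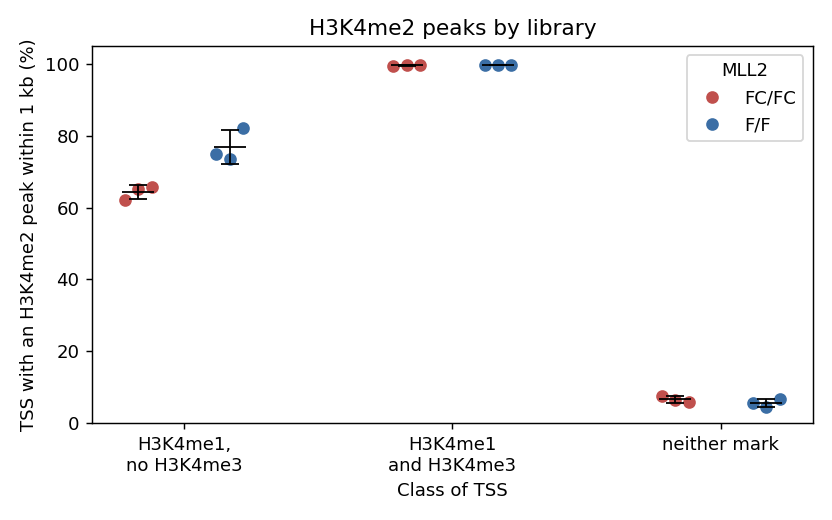
Share of TSS with an H3K4me2 peak within 1 kb (vertical axis, %) for 3 classes of TSS, each with 3 FC/FC libraries (red, left) and 3 F/F libraries (blue, right); points are libraries, the bars give the mean and SD. The H3K4me1-only class sits at 62.2–65.7% in FC/FC and 73.5–82.2% in F/F libraries without overlap, and the other classes lie close to 100% and under 10% in both.

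Of the 833 promoters, 451 (54.1%) had an H3K4me2 peak in all 6 libraries and 110 (13.2%) in none. Among the 272 with a peak in some, it was present in more F/F than FC/FC libraries at 228, which is 83.8% of them, against 46.3% of all TSS with a peak in 1 to 5 libraries. Over all TSS, 228 members (27.4%) had more F/F libraries with a peak, against a background of 2.04%, and 20 (2.40%) had fewer, against 1.67%. A peak present in all 3 F/F libraries and in no FC/FC library, called lost here, was found at 21 members (2.52%), against 0.103% of all TSS. These 21 were 3.74% of the 562 members with a peak in all 3 F/F libraries, against 0.168% of the 16086 TSS of that kind. The opposite pattern was found at 0 members, against 0.0646% of all TSS. Leaving out FC/FC NGS-6282 gave 35 lost peaks, against 0.213% of all TSS, and leaving out FC/FC NGS-6298 gave 32, against 0.152%. Leaving out F/F NGS-6278 gave 35, against 0.201%, and leaving out F/F NGS-6286 gave 37 lost, against 0.22%, and 1 gained. The top-scoring peaks of equal number gave 10 lost, against 0.0532%.

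The 6 lost peaks with the highest scores were at Syne3, 4933407G14Rik, Krt19, Lctl, 4930538K18Rik, and Tiam1. Syne3 encodes a nesprin of the nuclear envelope. Its F/F peaks, with scores of 1591, 1281, and 2332 at 66 to 316 bp from the TSS, had FC/FC counterparts 1265 to 1369 bp away, just beyond the 1 kb limit. Krt19, a keratin of simple epithelia, had F/F scores of 265, 228, and 309 over the TSS, and the nearest FC/FC peaks were 1193 to 1446 bp away. Lctl, a klotho-related membrane protein, had 154, 114, and 330 over the TSS in F/F and 1536 to 1767 bp away in FC/FC. At 4930538K18Rik the nearest FC/FC peak was 12751 to 13134 bp away. Tiam1, an exchange factor for the GTPase Rac, has 2 FC/FC libraries with no peak nearer than 4476 bp and 1 with a peak at 1027 bp. Of the 21, 8 had an FC/FC peak within 2 kb and 12 had none within 5 kb. Across the transcript, the log2 H3K4me2 difference defined below was negative at all 21 (93.6% of the 833, 40.3% of all TSS). Its median was −0.29, against −0.26 over the 833. At 4930444M15Rik, Lims1, and Itga10 it was −0.02, −0.02, and −0.10. In the unfiltered limma fit given below, 7 of the 21 passed, against 20.6% of the 833 and 2.19% of all TSS. Some F/F scores lay near the deposited minimum of 50, as at Limk1 (50.55) and Itga10 (57.12) in NGS-6286.

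The level of H3K4me2 over the transcripts showed the same direction. The median over the 833 was 0.459, 0.453, and 0.446 RPKM in FC/FC libraries and 0.579, 0.574, and 0.590 RPKM in F/F libraries (0.453 ± 0.00631 and 0.581 ± 0.00859, SD, n = 3 each), with no overlap. Over the transcripts of promoters with both marks it was 2.33 ± 0.0194 RPKM in FC/FC and 2.26 ± 0.0155 RPKM in F/F cells, the other way round. The median log2 difference, FC/FC minus F/F on the log2(RPKM + 0.1) scale, was −0.26 for the 833, with 780 (93.6%) below 0, against 0.03 for all TSS, of which 40.3% were below 0. Every FC/FC library lay below every F/F library at 505 members (60.6%), against 13.5% of all TSS, and above at 11 (1.32%), against 16.9%. Without FC/FC NGS-6282 it lay below at 617 members (74.1%), against 22.7%, and above at 18 (2.16%), against 28.8%.

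**Figure D3:**
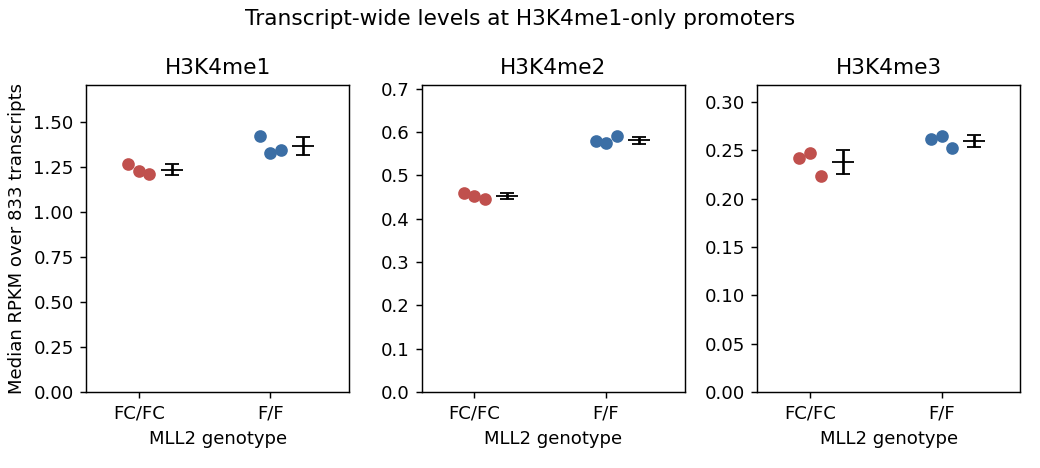
Median RPKM over the 833 transcripts (vertical axis) for H3K4me1, H3K4me2, and H3K4me3, with 3 FC/FC libraries (red, left) and 3 F/F libraries (blue, right) in each panel; points are libraries and bars are mean and SD. For H3K4me2, FC/FC libraries lie at 0.446–0.459 RPKM and F/F libraries at 0.574–0.590 RPKM, and H3K4me1 and H3K4me3, which chose the members, are shown as a description.

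**Figure D4:**
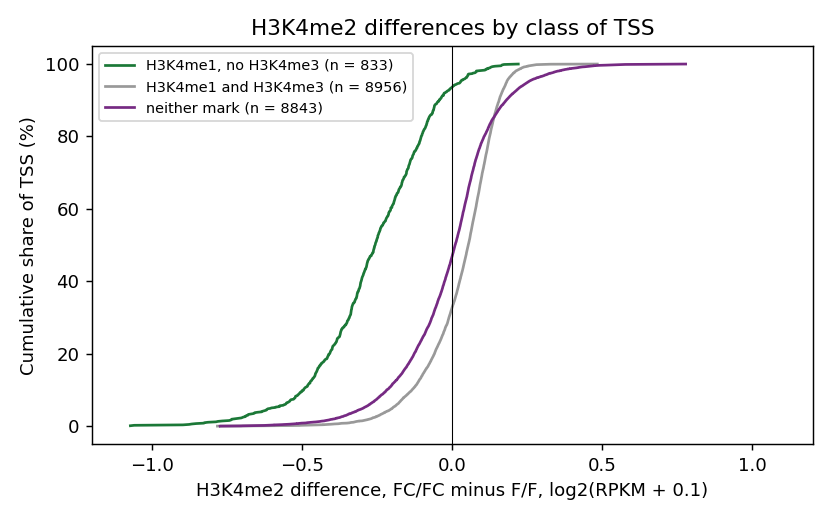
Cumulative share of TSS (vertical axis, %) by H3K4me2 difference over the transcript between FC/FC and F/F cells (horizontal axis, log2(RPKM + 0.1), unfiltered) for 3 classes of TSS. The line of H3K4me1-only promoters (green) is shifted to negative differences, with 93.6% below 0, while those with both marks (grey) and with neither (purple) cross 0 at 33.0% and 47.1%.

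Of the 833, 199 passed the filter on low values (over 1 RPKM in at least 3 of the 6 H3K4me2 libraries), 142 of them in all 6 and 21 only through the F/F libraries. The limma fit used the RPKM over the transcripts of all 11346 TSS that passed. At an adjusted p of at most 0.05, 51 members had lower H3K4me2 in FC/FC cells (25.6%), against 1.75% of all TSS tested. Higher H3K4me2 was found at 0 members, against 0.608%. The 21 could pass only by being higher in F/F cells. Leaving out of the count every TSS that passed through 1 genotype only, 37 of 178 members were lower (20.8%), against 1.3% of all TSS, and 0 higher, against 0.606%. A filter on the mean of the 6 libraries, chosen after the data were seen, gave 40 of 187 lower (21.4%), against 1.23%, and 0 higher, against 0.445%. At an unadjusted p of at most 0.05, 125 of the 199 were lower, against 8.0% of all TSS, and 5 higher, against 21.2%. By the adjusted p, limma-voom on the recovered reads gave 61 lower (30.7%), against 3.09%, and 0 higher, against 1.37%. The 51 belonged to 50 genes, and their log2 fold changes ran between −1.06 and −0.21. Without the filter, so that all 833 were tested, 172 were lower (20.6%), against 2.19%, and 0 higher, against 0.406%, and at the unadjusted threshold 501 were lower, against 11.7%, and 5 higher, against 12.1%. Centring each library on its median gave 93 lower members, against 4.55% of all TSS, and 0 higher, against 0.291%, and over all TSS 516 lower and 33 higher, where the RPKM as deposited gave 198 and 69.

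The number of calls depended on single libraries. Without FC/FC NGS-6282, 120 members were lower, including all 51, and 3 were higher, against 9.01% and 20.9% of all TSS; the 3 were 2 start sites of Sgk1 and 4930558K02Rik. Without FC/FC NGS-6290, 3 members were lower, of 7 over all TSS (0.0624%), and without FC/FC NGS-6298, 11, of 20 (0.178%). Without F/F NGS-6278, 2 were lower, of 4 (0.0358%), without F/F NGS-6286, 3, of 8 (0.0717%), and without F/F NGS-6294, 0 of all TSS were called in either direction. In that last fit 84 of 171 members were lower at an unadjusted p of at most 0.05, against 5.01% of all TSS, and 5 higher, against 12.5%. The median log2 fold change of the members tested stayed between −0.30 and −0.24 in these 6 fits, and 83.6% to 87.4% of them were negative. With all libraries it was −0.29, against 0.07 for all TSS tested.

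The 10 calls with the largest decrease were Ifitm6, S100b, Krtap2-4, Ly6f, Igfbp6, Sfta2, Klhl30, Aqp5, Palm3, and Cdsn, whose promoter windows include several of the sequences above. In what follows, libraries are in the order NGS-6282, NGS-6290, NGS-6298 for FC/FC and NGS-6278, NGS-6286, NGS-6294 for F/F, values are H3K4me2 RPKM, and adjusted p-values are those of limma with the Benjamini-Hochberg correction over 11346 TSS.

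Ifitm6 (TSS at chr7:141016892), of the interferon-induced transmembrane family, had 0.945, 0.961, and 1.11 in FC/FC and 1.64, 2.24, and 2.89 in F/F libraries (1.01 ± 0.0910 and 2.26 ± 0.627, SD), a log2 fold change of −1.06 ± 0.18 (SE, adjusted p = 0.0400). The groups did not overlap, but the F/F values were spread widely, with NGS-6294 highest. S100b (chr10:76253836), a calcium-binding protein of glia and some mesenchymal cells, had 0.808, 0.889, and 0.794 in FC/FC and 1.84, 1.58, and 1.42 in F/F libraries (−0.88 ± 0.09, adjusted p = 0.0145). Its H3K4me2 peak was over the TSS in all 3 F/F libraries and in FC/FC NGS-6282 alone, and the nearest peak in FC/FC NGS-6290 and NGS-6298 was 6812 and 6728 bp away.

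Krtap2-4 (chr11:99614846), a keratin-associated protein of the hair shaft, had 0.572, 0.547, and 0.552 in FC/FC and 1.08, 1.12, and 1.06 in F/F libraries (−0.85 ± 0.05, adjusted p = 0.00281). Both groups were tight, and the promoter was one of the 21 with a lost peak (F/F scores 97.0, 142, and 164). Ly6f (chr15:75268421), a GPI-anchored protein of the Ly6 family, had 2.36, 2.65, and 2.56 in FC/FC and 5.07, 4.25, and 4.36 in F/F libraries (−0.83 ± 0.08, adjusted p = 0.0101). It had the highest level of these 10 in both genotypes. Keratin-associated, Ly6, and Ifitm genes occur in clusters of similar copies, and how the authors' alignment treated reads shared between copies was not tested.

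Igfbp6 (chr15:102144186), a binding protein for insulin-like growth factors, had 1.09, 1.27, and 1.33 in FC/FC and 2.02, 2.30, and 2.17 in F/F libraries (−0.77 ± 0.08, adjusted p = 0.0145). It kept an H3K4me2 peak in every library, scoring 861, 1520, and 994 in FC/FC and 2480, 2350, and 3100 in F/F. Sfta2 (chr17:35649708), a surfactant-associated protein, had 1.77, 1.73, and 1.89 in FC/FC and 3.06, 3.02, and 3.11 in F/F libraries (−0.74 ± 0.05, adjusted p = 0.00283). Klhl30 (chr1:91351073), of the kelch-like family, had 0.756, 0.736, and 0.650 in FC/FC and 1.25, 1.22, and 1.2 in F/F libraries (−0.70 ± 0.06, adjusted p = 0.00981). Neither of these had overlapping groups. S100b, Krtap2-4, and Klhl30 passed the filter only through the F/F libraries, and without the filter their adjusted p-values were 0.0217, 0.00842, and 0.0144.

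Aqp5 (chr15:99591028), a water channel of secretory epithelia, had 1.24, 1.24, and 1.42 in FC/FC and 2.03, 1.97, and 2.34 in F/F libraries (−0.66 ± 0.08, adjusted p = 0.0226). Palm3 (chr8:84021474), of the paralemmin family, had 1.13, 1.09, and 0.992 in FC/FC and 1.89, 1.67, and 1.64 in F/F libraries (−0.65 ± 0.07, adjusted p = 0.0163). Its peak scores differed more than its levels, at 119, 130, and 112 in FC/FC and 1840, 1030, and 2050 in F/F libraries. Cdsn (chr17:35552128), corneodesmosin of the outer epidermis, had 1.02, 1.06, and 1.03 in FC/FC and 1.62, 1.66, and 1.72 in F/F libraries (−0.64 ± 0.04, adjusted p = 0.00295). Its TSS lay under an H3K4me2 peak in the 3 F/F libraries only, with the nearest FC/FC peaks at 1461 to 1586 bp.

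**Figure D5:**
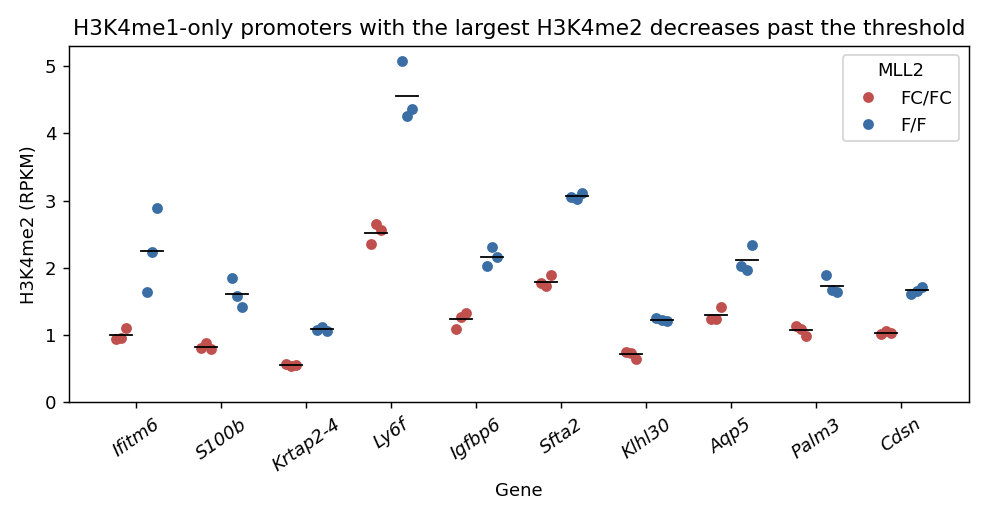
H3K4me2 RPKM (vertical axis) over the transcripts of the 10 H3K4me1-only promoters with the largest decrease past the threshold. Each has 3 FC/FC libraries (red, left) and 3 F/F libraries (blue, right), dots are libraries, and the dash gives their mean. At each gene all 3 FC/FC points are below all 3 F/F points, with Ifitm6 showing the widest F/F spread.

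Of the 8 members named for the most H3K4me2, only Hrct1 passed the threshold with all libraries. Sgk1, a serum- and glucocorticoid-induced kinase, had the highest level, 16.9, 18, and 18.6 in FC/FC and 15, 16, and 16.5 in F/F libraries (log2 fold change 0.17 ± 0.06, adjusted p = 0.110, and 0.0233 without FC/FC NGS-6282). Its RPKM covers a transcript with an H3K4me3 peak inside it, and no H3K4me2 peak lay within 1 kb of this TSS. Hrct1, a histidine-rich membrane protein, had 6.54, 6.66, and 5.74 in FC/FC and 8.25, 8.17, and 8.21 in F/F libraries (−0.38 ± 0.06, adjusted p = 0.0371). It shares its H3K4me2 peaks with 5430416O09Rik, whose TSS is under 3 kb away. Il1rl1, the receptor for interleukin 33, had 4.40, 6.28, and 6.33 in FC/FC and 4.38, 6.45, and 5.22 in F/F libraries, with overlapping groups (adjusted p = 0.776). A930004D18Rik, Krtap1-5, Gm18409, Lrrc26, and 4930556N13Rik, at 2.77 to 5.03 RPKM, had adjusted p-values of 0.102 to 0.991, and Krtap1-5, at 0.102, had 0.0274 without FC/FC NGS-6282.

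All 14 keratin and keratin-associated members had a negative H3K4me2 difference, as did 93.6% of the 833 and 40.3% of all TSS. The median of the 14 was −0.43, against −0.26 over the 833. In the fit without a filter 5 of the 14 passed the threshold as lower, Krtap2-4, Krt13, Krt19, Krt80, and Krt7, against the 20.6% of the 833 and 2.19% of all TSS given above. Krt19 had 0.197, 0.252, and 0.185 in FC/FC and 0.405, 0.493, and 0.442 in F/F libraries (−0.81 ± 0.10, adjusted p = 0.0258 over 26335 TSS). Krt80, a keratin of differentiating epithelia, had 0.552, 0.504, and 0.486 in FC/FC and 0.874, 0.914, and 0.864 in F/F libraries (−0.68 ± 0.06, adjusted p = 0.0144). The hair-keratin gene Krtap1-5 had 2.77, 3.65, and 4.10 in FC/FC and 5.03, 4.98, and 4.32 in F/F libraries, not past the threshold in this fit (adjusted p = 0.125). The summed H3K4me2 of the 8 epithelial markers, among them Krt19 and Krt8, was also lower in FC/FC cells, at 2.24–2.70 RPKM in FC/FC and 2.99–3.25 RPKM in F/F libraries, while that of the 11 fibroblast markers was 70.8–75.7 and 70.0–71.8 RPKM. Of the 8, only Cdh1 and Epcam carried H3K4me3 in all 6 libraries. The part of these markers in the keratin values was not tested.

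Of the other groups, all 7 extracellular matrix members were negative (median −0.26), as were the 3 protease members (−0.19), the 3 interferon-response members (−0.36), the 6 serpins (−0.30), and the 16 solute carrier members (−0.23). For cytokines and chemokines it was 7 of 8 (−0.30), and for growth factors and receptors 6 of 7 (−0.11). Negative too were 6 of 7 interleukin and receptor TSS (−0.09), 4 of 5 potassium channel TSS (−0.19), and 3 of 4 claudin TSS (−0.48). Over all H3K4me1-only promoters 93.6% were negative (median −0.26), against 40.3% of all TSS. Whether any of these groups differed from the other H3K4me1-only promoters was not tested. Spon2 had 1.21, 0.860, and 0.925 in FC/FC and 1.92, 1.35, and 1.85 in F/F libraries, without overlap but short of the threshold (−0.71 ± 0.16, adjusted p = 0.0638). Without FC/FC NGS-6282 it passed (−0.85 ± 0.13, adjusted p = 0.00786). Ccl17, a chemokine for T cells, had 0.626, 0.681, and 0.624 in FC/FC and 1.15, 0.843, and 1.02 in F/F libraries (−0.56 ± 0.10, adjusted p = 0.0455 without the filter). Bdnf, a neurotrophin, had 0.468, 0.535, and 0.616 in FC/FC and 0.644, 0.576, and 0.551 in F/F libraries, with overlap (adjusted p = 0.503 without the filter).

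The 6 myogenic TSS were all negative with a median of −0.16, and of the 2 adipogenic TSS 1 was negative (median −0.06). Over the 833 the median was −0.26, with 93.6% negative, against 40.3% of all TSS. Mybph, a myosin-binding protein, had 0.560, 0.451, and 0.422 in FC/FC and 0.926, 0.910, and 0.922 in F/F libraries (−0.83 ± 0.09, adjusted p = 0.0217 without the filter). Mylk, the smooth muscle myosin light chain kinase, had 0.584, 0.535, and 0.564 in FC/FC and 0.812, 0.712, and 0.776 in F/F libraries (−0.39 ± 0.06, adjusted p = 0.0345 without the filter). Both had no overlap between genotypes. Fabp4, the fatty acid carrier of fat cells, had 1.23, 1.15, and 1.25 in FC/FC and 1.26, 1.18, and 1.08 in F/F libraries, with no difference past the threshold (0.05 ± 0.06, adjusted p = 0.600). Pparg, the regulator of fat cell formation, had 0.323, 0.381, and 0.427 in FC/FC and 0.416, 0.474, and 0.425 in F/F libraries (adjusted p = 0.275 without the filter), and no H3K4me2 peak within 9404 bp in any library. Thy1 had 1.16, 1.25, and 0.971 in FC/FC and 1.25, 1.4, and 1.33 in F/F libraries (−0.22 ± 0.09, adjusted p = 0.157).

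Some members without any H3K4me2 peak within 1 kb also differed in level. There were 110 members without such a peak. The share of them past the threshold is not given here, so the genes below are examples only. Lsp1 had 1.2, 1.10, and 1.19 in FC/FC and 1.42, 1.39, and 1.56 in F/F libraries (−0.30 ± 0.06, adjusted p = 0.0537). It passed the threshold without FC/FC NGS-6282 (adjusted p = 0.0126) and by limma-voom (adjusted p = 0.0310). The span measured for Lsp1 held an H3K4me3 peak in 5 libraries. Gm11944, a gene model, had 1.02, 1.03, and 1 in FC/FC and 1.31, 1.46, and 1.54 in F/F libraries (−0.46 ± 0.06, adjusted p = 0.0264). Gja5, the gap junction protein connexin 40, had 0.885, 0.832, and 0.792 in FC/FC and 1.27, 1.12, and 1.29 in F/F libraries (−0.50 ± 0.07, adjusted p = 0.0267). Gm11944 and Gja5 passed the threshold with no called peak at the TSS. Gja5 passed the filter only through the F/F libraries, and its adjusted p without the filter was 0.0289.

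The negative difference was present in most subsets of the 833, given here as descriptions. It was −0.35 for the 163 transcripts of at most 5 kb, −0.27 for 317 of 5 to 20 kb, and −0.22 for 353 over 20 kb. For the 699 with no H3K4me3 peak in the transcript it was −0.28, with 95.7% negative, and for the 134 with one it was −0.13, with 82.8% negative. In 4 equal groups by H3K4me1 score, lowest to highest, it was −0.16, −0.24, −0.25, and −0.34. Promoters with at most 5 CpG dinucleotides stood at −0.26 (620), those with 6 to 14 at −0.24 (182), and those with 15 or more at −0.16 (31). For the 44 transcripts marked active it was −0.25, and for the 190 noncoding transcripts −0.30. The median F/F level of H3K4me2 also differed, at 0.932, 0.622, and 0.459 RPKM from the shortest to the longest transcripts. From the lowest to the highest H3K4me1 score it was 0.398, 0.455, 0.650, and 0.971 RPKM. Differences between these subsets, and the part of level in them, were not tested.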

How the data were processed

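ChIP-seq libraries of H3K4me1, H3K4me2, and H3K4me3 (18, 3 FC/FC and 3 F/F per mark) were used. The other 34 of the 52 samples were not used here. Per the labels and the study's methods, the authors aligned reads to mm10 with BWA 0.7.10 (base calls by CASAVA 1.4) and called peaks per library against an H3 ChIP of the same genotype with MACS 1.4.2. The deposited peak score is −10 log10 of the p-value, at least 50. The authors' deposited RPKM values were taken over RefSeq transcripts extended by 500 bp on both sides, and scaled to length and to the reads summed over all those transcripts. Dividing out length and depth gave whole reads for 100% of values, within 0.01 of a read, and depths of 26714377 to 49990775 reads. The study's methods drop peaks over blacklisted regions from later steps, and whether the deposited lists precede that step is not stated.

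Transcripts of at least 250 bp were reduced to 26335 unique TSS, 1 per position (the longest). Overlap needed 1 bp. H3K4me2 was tested with limma 3.58.1 (R 4.3.3) on log2(RPKM + 0.1), over 1 RPKM in at least 3 libraries, trended moderation, FC/FC against F/F, with Benjamini-Hochberg adjustment over all TSS tested and a threshold of 0.05. Tables and figures used Python 3.11.15, numpy 2.4.6, pandas 2.3.3, and matplotlib 3.10.9. The fit was tested on simulated data. Sequences were read from GRCm38.p6, the mm10 assembly. Of the 833 promoters, 544 had a RefSeq promoter entry at the same TSS.

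Genes were named by rule, 8 members by H3K4me1 score, 8 by H3K4me2 level, 10 by decrease past the threshold, 6 lost peaks, 5 without H3K4me2 peaks, the 3 on each side of the 5 kb limit, and up to 3 per gene list. Krt80 was named after its values were seen. Members, lists, and tests were chosen with earlier results of these data known. Alternatives were other peak thresholds, windows, H3K4me3 distances, pseudocounts, filters, scalings, limma-voom on recovered reads, and leaving out each library. A filter on the mean and a block by library number were added after seeing the data. Replicate libraries are described as independent, and p-values measure the spread between these libraries.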

Additional observations from a re-analysis of the deposited data

How the results depend on the processing

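The decrease of H3K4me2 kept its sign under each alternative run. The number of members was 682 with a window of 500 bp, 1108 with 2 kb, 932 with an H3K4me3 limit of 2 kb, 684 with 10 kb, 746 with peaks scoring at least 100, and 800 with equal peak numbers. Leaving out 1 library gave 837 to 869 members, a difference in H3K4me2 peak share of −14.1 to −9.74 points, 21 to 37 lost peaks, 0 to 1 gained, 0 to 120 members lower and 0 to 3 higher by limma, and a median log2 fold change of −0.30 to −0.24. Equal peak numbers gave −6.04 points and 10 lost peaks. No filter gave 172 lower members and a median of −0.26, and centring on library medians gave 93 and −0.34. The median was −0.30 with a pseudocount of 0.01, −0.18 with 1, and −0.31 with limma-voom. The cause of these shifts was not tested. Of single named genes, 297 comparisons under other settings kept their side of the threshold and 16 gained it, and when 1 library was left out 133 kept it, 9 gained it, and 38 lost it. The labels give no replicate numbers shared between genotypes. A replicate block by the order of the library numbers was chosen after the data were seen. It gave 73 lower members, against 1.85% of all TSS, and 0 higher, against 0.370%, with a median of −0.29. The deviations of same-ordered libraries from their genotype means correlated at 0.59, 0.71, and −0.49 over TSS. With 3 libraries per genotype the deviations sum to 0, so these correlations depend on each other. They cannot decide whether the libraries were paired.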
